A study of Saccharomyces cerevisiae with 12 samples.

Results

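The strain H3i was compared with wild type (WT) in galactose medium, YPGal, the medium in which H3i still makes its histone H3 messenger RNA. The comparison holds the 3 libraries titled H3i in YPGal and the 3 titled WT in YPGal, 6 of the 12 libraries of the series; they were chosen by title alone. H3i (DGS200.1 in the labels) was built from the YEF473A line of budding yeast by deleting HHT1 and by placing HHT2 behind the GAL1 promoter. WT is the parent line by the labels, spelled YEF4734A in the strain field, with both H3 genes under their own promoters. The labels give all 3 WT libraries the same strain, but WT replicate 3 differs from the others in marker and mating genes, as described below. All 6 cultures were grown in YPGal at the same temperature, and none had been moved to glucose. H3i is 1 engineered strain, so that any difference it carries beside the H3 genes enters the comparison as well. Of the other 6 libraries, of both strains in glucose medium (YPD), 4 entered the fit, where they helped to estimate the spread.

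Histones H3 and H4 form the tetramer at the centre of the nucleosome, and H2A and H2B join it as dimers. Budding yeast has paired genes for each of these proteins, and most of them lie head to head in H3-H4 or H2A-H2B pairs that share 1 intergenic promoter region. Their transcription is normally restricted to S phase, when DNA is copied. The GAL1 promoter follows another rule. It is bound by the activator Gal4, is active on galactose whatever the stage of the cell cycle, and is repressed by glucose.

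The H3 genes have these positions in the R64 (sacCer3) build. HHT1 (YBR010W) lies at chrII:256331-256741 on the plus strand, and HHT2 (YNL031C) at chrXIV:575640-576050 on the minus strand. HHF2 (YNL030W), for H4, starts on the other side of HHT2 at chrXIV:576727-577038, across 676 bases. HHF1 (YBR009C), the second H4 gene, faces HHT1 across 646 bases. The stretches below are reference sequence from RefSeq R64 and not sequence of the H3i construct. They do not show which bases the promoter swap exchanged. The first is part of the region upstream of GAL1 (chrII:278548-278641, plus strand), with 3 matches to the Gal4 motif in capitals. The others are the 150 bases before the start codons of HHT2 (chrXIV:576051-576200, minus strand) and of HHF2 (chrXIV:576577-576726, plus strand) in the native locus. Where the GAL1 promoter ends and the native sequence resumes in H3i is not stated in the labels.
GAL1 upstream: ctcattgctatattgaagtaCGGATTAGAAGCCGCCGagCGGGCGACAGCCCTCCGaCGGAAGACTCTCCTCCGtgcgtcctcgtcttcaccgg
HHT2 upstream: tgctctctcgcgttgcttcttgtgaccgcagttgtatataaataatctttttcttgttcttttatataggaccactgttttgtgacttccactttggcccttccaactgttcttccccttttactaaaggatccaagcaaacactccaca
HHF2 upstream: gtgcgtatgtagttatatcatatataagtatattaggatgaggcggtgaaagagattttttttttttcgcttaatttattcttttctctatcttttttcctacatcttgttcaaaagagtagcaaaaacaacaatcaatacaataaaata
The Gal4 motif searched was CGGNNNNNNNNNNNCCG, which reads the same on both strands. It occurred in 2.98% of the 6000 upstream windows of 500 bases in the genome and in 9 of the 11 galactose genes listed here. Those 11 were listed as the galactose regulon, so that a high share of matches is built in. Neither of the native histone stretches shown held it, but at 150 bases they are shorter than the windows.

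The unit of level is CPM, a gene's share of all gene counts in a library times 1e6, and values are always given in the order of replicates 1, 2 and 3. Gene counts totalled 2395482, 44818520 and 10032471 in H3i, against 2525223, 44709318 and 8649749 in WT. Replicate 2 was sequenced deepest but lost many genes. Of 3396 genes read at 50 CPM or more in replicates 1 and 3, 47.1% stood at under 0.1 of that level in H3i replicate 2, and 45.8% in WT replicate 2. The fit therefore used replicates 1 and 3 of all 4 groups, with a term for the kit, which differs between these replicates. Replicate 2 is printed beside the levels of each gene described in full, and a fitted difference given alone leaves it out. The H3 genes have the same coding length, 411 bases, with 93.2% identical bases and an identical run of at most 74. The H4 genes, of 312 bases, share 97.4% with a run of at most 80. Reads that align to more than 1 place stand in a separate entry of the deposited tables, so that H3 and H4 counts come from reads that tell the copies apart.

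With edgeR's quasi-likelihood test no gene of 6354 passed a Benjamini-Hochberg adjusted p of 0.05 (percent called 0). At an unadjusted p under 0.05 stood 114 genes (1.79%), 47 higher in H3i (0.74%) and 67 lower (1.05%). The DESeq2 test of the same 8 libraries called 12 of the 1948 genes to which it gave an adjusted p (0.616%). HHT2 was the 1 gene called higher in H3i (0.0513%). The 11 called lower (0.565%) were HHT1 and HHF2, then LEU1, OAC1, BAT1, ILV3 and ILV5 of branched-chain amino acid metabolism, ALD5, MAE1, URA1 and PHO84. The lowest edgeR adjusted p, 0.0603, belonged to HHF2, OAC1 and HHT1. Without both WT libraries of replicate 3, DESeq2 called 11 genes. LEU1, OAC1, URA1 and HHF2 were again among them, with LEU2, MDH2, SFC1, FOX2, ADH2 and NCE103 lower and URA3 higher. HHT1 then had an adjusted p of 0.0975, HHT2 0.275, BAT1 0.0524, and ALD5, PHO84, ILV5, MAE1 and ILV3 0.363 to 1. On all 12 libraries with a replicate block, DESeq2 called 6 genes, among them HHT1 and HHF2. The edgeR fit had 3 residual degrees of freedom and a biological coefficient of variation of 0.273. P-values measure the spread between these libraries, which the series design describes as biological replicates. WT replicates 1 and 3 differ in marker and mating genes, as described below. For WT the spread therefore need not be that between replicates of 1 strain. Genes below that are not histone, H3-neighbour, marker, mating, galactose or Rap1-Sir genes were picked with their values in view.

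The deleted gene checks the labels. HHT1 stood at 3.34, 1.09 and 0.0997 CPM in H3i, against 881, 1329 and 689 CPM in WT. The groups lie far apart in all 3 replicates. H3i had 9 counts in replicates 1 and 3 together and WT had 8185, which made WT 1011-fold higher in CPM. In replicate 2 WT was 1215-fold higher, with 49 counts in H3i. The difference had a DESeq2 adjusted p of 1.01e-06 and an edgeR adjusted p of 0.0603.

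HHT2, driven by GAL1 in H3i, was higher than under its own promoter. It stood at 3694, 4353 and 2284 CPM in H3i, against 911, 1300.0 and 936 CPM in WT. Every H3i library lay above every WT library, as was the case for 1.01% of all genes tested. The log2 difference in the edgeR fit was 1.67 ± 0.44 (SE), with an adjusted p of 0.00728 by DESeq2 and an unadjusted p of 0.00573 by edgeR. By replicate the log2 difference was 2.05, 1.70 and 1.17.

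Both H3 genes together gave 3698, 4354 and 2284 CPM in H3i, against 1792, 2629 and 1625 CPM in WT. H3i with 1 H3 gene thus had a higher H3 level than WT with both, in each replicate. H3 protein was not measured.

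HHF2, the H4 gene whose promoter region HHT2 shares, fell in H3i by DESeq2. Its level was 63.9, 5.13 and 125 CPM in H3i, against 809, 1306 and 774 CPM in WT. No H3i library came near the WT range, and H3i replicate 2 was the lowest. All 3 H3i libraries lay below all 3 WT libraries for 0.346% of genes tested. The log2 difference was -3.19 ± 0.36, with an adjusted p of 3.33e-18 by DESeq2 and 0.0603 by edgeR.

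HHF1, the H4 gene beside the deleted HHT1, stood at 1087, 1232 and 1057 CPM in H3i, against 779, 1182 and 781 CPM in WT. The H3i values reach above the WT values in replicates 1 and 3 and are close in replicate 2. Its log2 difference of 0.42 ± 0.27 did not pass either test (edgeR unadjusted p = 0.165, DESeq2 adjusted p = 0.999). Of all H4 CPM, HHF1 supplied 94.5%, 99.6% and 89.4% in H3i, against 49.1%, 47.5% and 50.2% in WT. In CPM per kilobase of coding length, H3 over H4 was 2.44, 2.67 and 1.47 in H3i, against 0.856, 0.802 and 0.794 in WT. The ratio was higher in each H3i library than in any WT library. The H3 copies differ at 28 of 411 coding bases and the H4 copies at 8 of 312. The share of reads that tell copies apart can thus differ between H3 and H4. A ratio above or below 1 therefore does not give the proportion of H3 to H4 messenger RNA.

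The H2A and H2B genes differed little. HTA1, for H2A, stood at 809, 1281 and 723 CPM in H3i, against 855, 1702 and 955 CPM in WT. HTB2, for H2B, stood at 759, 931 and 524 CPM in H3i, against 617, 888 and 441 CPM in WT. The strains' ranges overlap for both genes. The log2 differences of HTA1, HTA2, HTB1 and HTB2 were -0.28 ± 0.29, 0.27 ± 0.27, -0.23 ± 0.30 and 0.24 ± 0.28, none past either test. The 3 variant and linker histone genes (median log2 -0.07), the 12 regulators of histone transcription (-0.03) and the 16 histone chaperones (-0.11) had no member at an unadjusted p under 0.05.

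**Figure D1:**
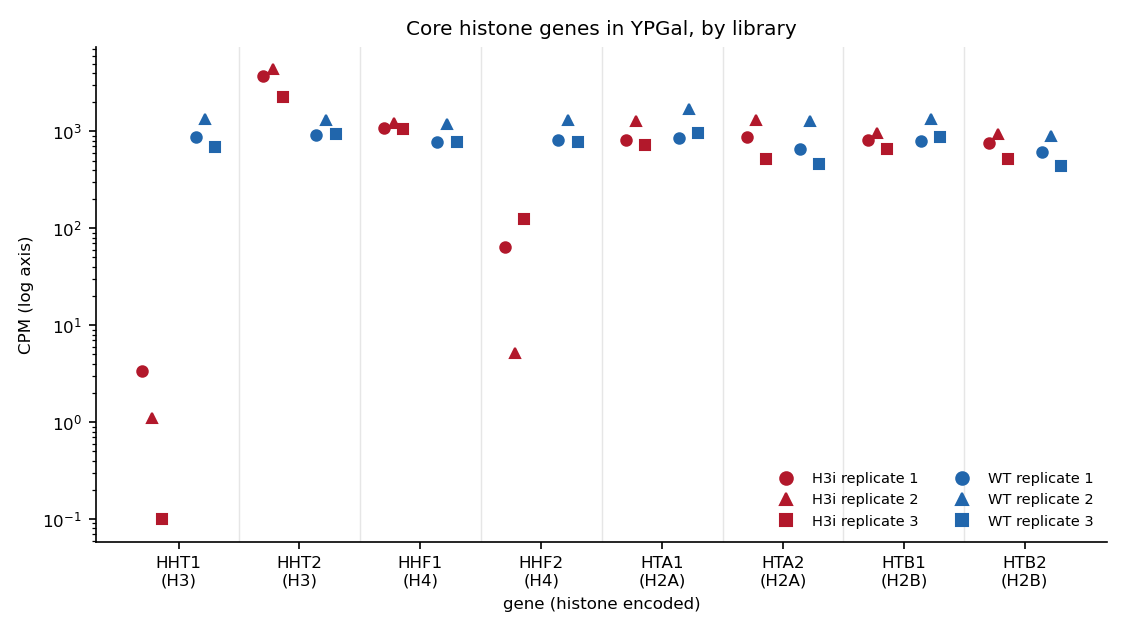
CPM on a log axis of the 8 core histone genes in each library in YPGal, with H3i left of WT and a marker shape for each replicate. HHT1 and HHF2 lie far lower in H3i and HHT2 lies higher (2284 to 4353 CPM in H3i, 911 to 1300 CPM in WT), while the other 5 genes overlap between the strains.

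Apart from HHF2, the genes around the H3 loci passed no test in the fit of replicates 1 and 3, while replicate 2 differed for some. On the HHT1 side, IPP1, for inorganic pyrophosphatase, had 1044, 1249 and 441 CPM in H3i, against 954, 1179 and 485 CPM in WT (log2 -0.06 ± 0.31). DSF2 (-0.28 ± 0.33) and FLR1, for a multidrug transporter (-0.03 ± 0.24), did not pass either. The Ty reading frame YBR012W-B, whose copies elsewhere are alike in sequence, had 5.01, 177 and 0.399 CPM in H3i, against 5.15, 93.6 and 3.24 CPM in WT, and YBR012W-A had 0 counts in all 6 libraries. Beyond HHF2, KTR5, for a mannosyltransferase, had a log2 difference of -0.06 ± 0.33 and CRZ1, the calcineurin-responsive factor, 0.16 ± 0.20. KTR5 stood at 33.0, 46.5 and 55.0 CPM in H3i, against 40.0, 0.559 and 48.0 CPM in WT, far apart in replicate 2 only. On the far side of HHT2, SIW14 stood at 26.3, 2.21 and 116 CPM in H3i, against 70.5, 3.71 and 85.0 CPM in WT (-0.37 ± 0.44), and YNL034W (0.27 ± 0.56) and YNL033W (0.81 ± 0.92) were read at under 25 CPM. In replicate 2 YNL033W stood at 1.25 CPM in H3i, against 22.4 CPM in WT. HHF2 was the only tested neighbour with an edgeR unadjusted p under 0.05.

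The galactose genes, which answer to the same activator as the GAL1-driven HHT2, did not pass the tests. GAL1, galactokinase, stood at 10653, 11778 and 3956 CPM in H3i, against 8691, 6616 and 4973 CPM in WT. GAL10, the epimerase, stood at 10519, 11126 and 3932 CPM in H3i, against 7840, 5952 and 2917 CPM in WT. H3i was higher in every replicate for GAL10, and lower in replicate 3 for GAL1; replicate 3 was the lowest in both strains. The fitted log2 differences were 0.04 ± 0.57 for GAL1, 0.25 ± 0.66 for GAL7, the transferase, 0.39 ± 0.47 for GAL10 and 0.31 ± 0.75 for GAL2, the transporter. GAL3, the galactose sensor, had 0.71 ± 0.44, and GAL80, the inhibitor of Gal4, 0.38 ± 0.35. Over the 11 genes of the regulon the median was 0.46, 0.76 and 0.29 by replicate. Over all genes tested it was 0.02, -0.04 and 0.01. In replicate 1, 11 of 11 were higher in H3i, against 3327 of the 6354 genes tested. In replicate 2, 8 were higher, against 2811 of 6354, and in replicate 3, 7 were, against 3222 of 6354. MTH1, of glucose signalling, was the 1 member at an edgeR unadjusted p under 0.05 (log2 0.84 ± 0.36).

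Rap1 and the Sir proteins silence genes near chromosome ends, and Rif1 and Rif2 limit telomere length. RAP1 stood at 142, 178 and 197 CPM in H3i, against 157, 272 and 251 CPM in WT (log2 -0.31 ± 0.23). RIF1 (-0.16 ± 0.21), RIF2 (-0.09 ± 0.40), SIR1 (-0.05 ± 0.37), SIR2 (-0.09 ± 0.28), SIR3 (-0.14 ± 0.24) and SIR4 (-0.48 ± 0.25) did not pass either. Among 214 genes within 20 kb of a chromosome end, 9 stood at an unadjusted p under 0.05 on the higher side (0.74% of all genes) and 4 on the lower side (1.05% of all genes), with a median of 0.08. The higher ones included COS12, COS8 and YHL050C, and the lower ones included GIT1, PHO12 and PHO89. The list of 12 COS genes had 2 members at an unadjusted p under 0.05 on the higher side and 1 on the lower side. COS8 had 64.3, 0.335 and 119.7 CPM in H3i, against 26.9, 0.0895 and 22.2 CPM in WT. COS12 had 9.60, 28.6 and 13.6 CPM in H3i, against 2.77, 7.38 and 1.16 CPM in WT. These are members of repeated families near chromosome ends, so counts can be split among copies. Neither had a DESeq2 adjusted p, and their edgeR adjusted p was 1.

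Enzymes of branched-chain amino acid synthesis were the largest group among the DESeq2 calls. Leucine, isoleucine and valine are made partly in mitochondria, through the Ilv enzymes, and leucine by a further branch of Leu enzymes. The factor Leu3 controls several of the genes and is activated by isopropylmalate, an intermediate of the leucine branch. LEU1, for isopropylmalate isomerase, stood at 167, 0.379 and 178 CPM in H3i, against 1308, 0.537 and 730 CPM in WT. In replicates 1 and 3 both H3i values lie well below both WT values, and replicate 2 hardly read the gene. The log2 difference was -2.58 ± 0.33, with an adjusted p of 1.68e-14 by DESeq2 and 0.0959 by edgeR.

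OAC1, for a mitochondrial carrier of oxaloacetate and isopropylmalate, stood at 51.8, 6.74 and 59.9 CPM in H3i, against 234, 279 and 184 CPM in WT. No H3i library reached the WT range in any replicate. Its log2 difference was -1.94 ± 0.22 (adjusted p 3.39e-14 by DESeq2, 0.0603 by edgeR). BAT1, the mitochondrial branched-chain aminotransferase, stood at 201, 1.78 and 152 CPM in H3i, against 581, 184 and 476 CPM in WT. H3i was lower in each replicate, and only H3i replicate 1 reached the lowest WT value. Its log2 difference was -1.63 ± 0.26 (adjusted p 1.18e-11 by DESeq2, 0.234 by edgeR).

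The Ilv enzymes moved less. ILV5, for acetohydroxyacid reductoisomerase, stood at 993, 1.96 and 323 CPM in H3i, against 1900.4, 2.53 and 1069.7 CPM in WT (log2 -1.33 ± 0.37, DESeq2 adjusted p 0.0286). ILV3, for dihydroxyacid dehydratase, stood at 427, 0.178 and 289 CPM in H3i, against 779, 0.336 and 649.8 CPM in WT (-1.08 ± 0.28, DESeq2 adjusted p 0.00632). Each was lower in H3i in every replicate, with replicate 2 near 0 in both strains. LEU4, for isopropylmalate synthase, had -0.92 ± 0.29 and a DESeq2 adjusted p of 0.0979. ILV2 (-0.46 ± 0.26), ILV6 (0.26 ± 0.36), ILV1 (-0.18 ± 0.29), LEU9 (-0.27 ± 0.29) and BAT2 (0.93 ± 0.51) passed neither test. The regulator LEU3 (0.12 ± 0.22) did not pass by edgeR and had no DESeq2 adjusted p. In replicate 2, LEU4 (1.67 CPM in H3i, against 769.8 CPM in WT) and ILV6 (1.45 CPM in H3i, against 281 CPM in WT) were nearly unread in H3i, and ILV1 was higher there (230.0 CPM, against 19.5 CPM in WT). BAT2 differed by log2 0.12 in replicate 1 and 1.63 in replicate 3. Of the 13 genes of this pathway, LEU3 without an adjusted p among them, DESeq2 called 5 lower and 0 higher. Of all genes with an adjusted p it called 0.565% lower and 0.0513% higher. The list median was -0.84, -0.91 and -0.61 by replicate, beside 0.02, -0.04 and 0.01 over all genes tested. The list was written after its members' values were seen.

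LEU2, for the next enzyme after LEU1, could not be compared in replicate 3. It stood at 78.5, 86.6 and 166 CPM in H3i, against 368, 161 and 0 CPM in WT, where replicate 3 had 0 counts. H3i was lower in replicates 1 and 2, by log2 -2.20 and -0.93.

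ALD5, for a mitochondrial aldehyde dehydrogenase, and MAE1, for mitochondrial malic enzyme, were called with this group. ALD5 stood at 139.8, 271 and 99.6 CPM in H3i, against 351, 419 and 416 CPM in WT, with no overlap (log2 -1.75 ± 0.28, DESeq2 adjusted p 6.47e-07). MAE1 stood at 63.5, 0.402 and 35.6 CPM in H3i, against 165, 0.783 and 134 CPM in WT (-1.74 ± 0.32, DESeq2 adjusted p 0.000483). Both genes were lower in H3i in every replicate.

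**Figure D2:**
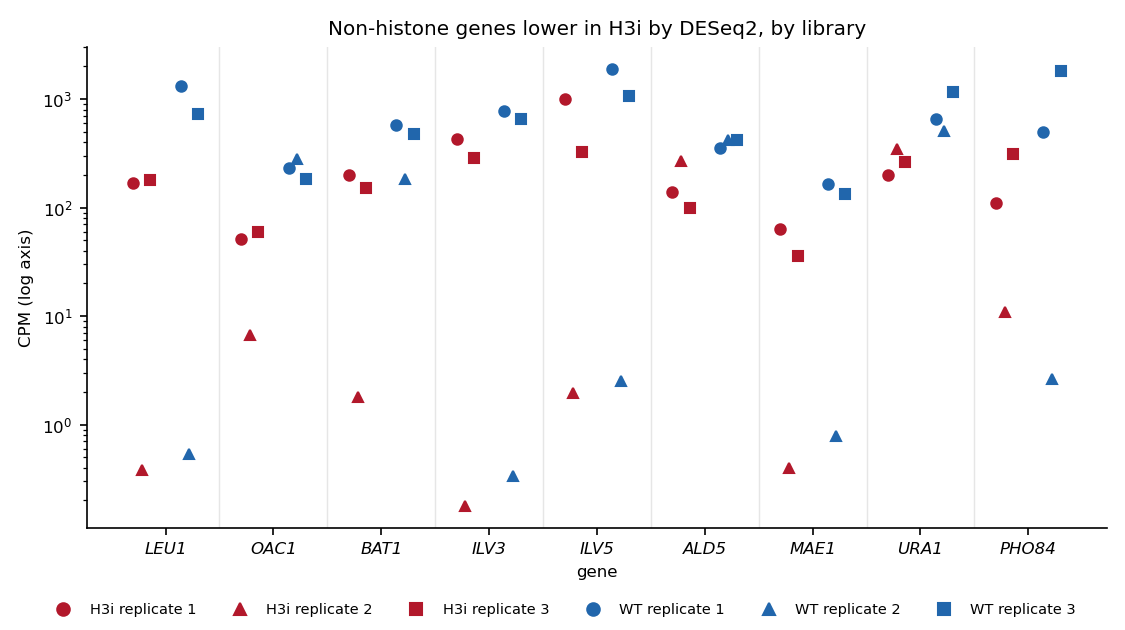
CPM on a log axis of the 9 non-histone genes that DESeq2 called lower in H3i, by library in YPGal, with H3i left of WT and a marker shape for each replicate. In replicates 1 and 3 each gene is lower in H3i; in replicate 2 (triangles) LEU1, ILV3, ILV5 and MAE1 are near 0 in both strains and PHO84 is higher in H3i (10.9 CPM, against 2.64 CPM in WT).

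The Leu3 motif searched was CCGNNNNCGG, which reads the same on both strands. It occurred within 500 bases upstream of 6 of the 11 genes that DESeq2 called lower, and in 3.28% of all 6000 windows. Of the 11 genes, 5 belong to the branched-chain pathway, of which Leu3 controls several genes. A high share of matches is therefore partly built in and tells nothing of the strain difference. ILV3, called from the same pathway, held no match. A match of each of the 6 genes, which were picked by their values, is shown here (RefSeq R64, motif in capitals, 10 bases on each side where the window allows). Their places are chrVII:478850-478879 (minus strand) for LEU1, chrXI:216850-216879 (plus) for OAC1, chrVIII:517375-517404 (plus) for BAT1, chrXII:839611-839640 (minus) for ILV5, chrV:303530-303557 (plus) for ALD5 and chrXI:384867-384896 (minus) for MAE1.
LEU1: aacgaaaattCCGGGACCGGcgaaatttgc
OAC1: ccgaaagatgCCGGAAACGGtcttaggccg
BAT1: attgtgtttgCCGGTACCGGcctttaagct
ILV5: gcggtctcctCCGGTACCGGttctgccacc
ALD5: ttttttggCCGCTACCGGactagcaagg
MAE1: gaagtcgtacCCGTTACCGGcatgattgac
LEU1 had a further match nearer to its start. Of the 13 pathway genes 8 held the motif. BAT2, ILV2 and LEU9 were among them, so that a match also stood upstream of genes that passed neither test. LEU2 was among them too, and it passed neither test with 0 counts in WT replicate 3. Leu3 binding was not measured.

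URA1, for dihydroorotate dehydrogenase of pyrimidine synthesis, fell in H3i by DESeq2. It stood at 199, 345 and 262 CPM in H3i, against 661, 512 and 1159 CPM in WT, and the strains did not overlap (log2 -2.03 ± 0.42, adjusted p 7.85e-05). URA3, for the last enzyme of the pathway and a common selection marker, stood at 587, 1067 and 742 CPM in H3i, against 96.6, 146 and 0 CPM in WT. H3i was higher by log2 2.63 and 2.83 in replicates 1 and 2, and WT replicate 3 had 0 counts. Among the other genes of pyrimidine synthesis and uracil uptake, URA2 (-0.34 ± 0.39), URA4 (-0.69 ± 0.34) and URA5 (-0.04 ± 0.28) passed neither test. The permease FUR4 (0.09 ± 0.37) did not pass by edgeR and had no DESeq2 adjusted p. The URA1 call and the URA3 levels were therefore opposite in direction within 1 pathway.

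A pair of genes of riboflavin supply also went opposite ways without passing an adjusted test. RIB4, for lumazine synthase, stood at 175, 109 and 148 CPM in H3i, against 403, 165 and 400.5 CPM in WT (log2 -1.39 ± 0.40, DESeq2 adjusted p 0.0979). MCH5, the riboflavin transporter, stood at 321, 737 and 201 CPM in H3i, against 118, 169.7 and 110.3 CPM in WT, with every H3i library above every WT library (1.10 ± 0.29, DESeq2 adjusted p 0.0958). RIB1, RIB2, RIB3, RIB5 and RIB7 lay between 0.47 ± 0.28 and -0.03 ± 0.23.

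Genes of the phosphate response were low in H3i beyond the 1 call. When phosphate is scarce the factor Pho4 enters the nucleus and turns on genes for phosphate uptake and scavenging, and the nucleosomes of PHO5 are a classic case of chromatin control. PHO84, the high-affinity phosphate transporter, stood at 111, 10.9 and 309 CPM in H3i, against 501, 2.64 and 1821 CPM in WT. H3i was lower in replicates 1 and 3 and higher at the low level of replicate 2 (log2 -2.44 ± 0.56, DESeq2 adjusted p 0.00234). PHO5, for the secreted acid phosphatase, stood at 21.3, 2.72 and 94.0 CPM in H3i, against 137, 9.08 and 559.6 CPM in WT (-2.67 ± 0.87, edgeR unadjusted p 0.0155). Within each replicate H3i was lower, while the strains' ranges overlap across replicates.

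SPL2, a regulator of low-affinity phosphate uptake, stood at 2.09, 0 and 18.6 CPM in H3i, against 26.1, 0.134 and 99.2 CPM in WT (log2 -2.93 ± 0.64). PHO89, for a sodium-phosphate cotransporter, stood at 13.8, 2.01 and 265 CPM in H3i, against 123, 0.425 and 1173 CPM in WT (-2.57 ± 1.03). VTC3, of the complex that makes polyphosphate, stood at 85.2, 612 and 202 CPM in H3i, against 157, 331 and 1103 CPM in WT (-1.77 ± 0.58). All 3 were lower in H3i in replicates 1 and 3, and PHO89 and VTC3 were higher in replicate 2.

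Of 23 phosphate genes tested, 12 stood at an unadjusted edgeR p under 0.05 on the lower side and 0 on the higher side, against 1.05% and 0.74% of all genes. The 12 were PHO5, PHO12, PHO81, PHO84, PHO89, PHM6, VTC1, VTC2, VTC3, VTC4, SPL2 and GIT1. The list median was -0.64 in replicate 1, -0.18 in replicate 2 and -1.22 in replicate 3, and 17 of 23 were lower in H3i in both replicates 1 and 3, against 18.8% of all genes tested. The pathway's own regulators PHO4 (-0.02 ± 0.23), PHO2 (0.34 ± 0.33), PHO80 (-0.05 ± 0.27) and PHO85 (0.54 ± 0.40) did not pass. PHO11 and PHO12 are near-identical copies, so that their counts are uncertain. Levels of some members, such as PHO89, differed widely between replicates 1 and 3 within a strain, and the phosphate content of the media was not stated in the labels.

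The Pho4 motif CACGTG is also its own reverse complement. It occurred upstream of 15 of the 23 genes and of 11 of the 12 just named, against 6.23% of all windows. The list was drawn up as the phosphate regulon, which Pho4 controls. A high share of matches is therefore built into the list and tells nothing of the strain difference. The VTC3 window overlaps that of its divergent neighbour CTF19, so that both hold the same matches. Sites of the 4 genes with the lowest fitted values are shown, from chrXIII:26221-26246 (PHO84, minus strand), chrII:431189-431214 (PHO5, minus), chrVIII:375446-375471 (SPL2, minus) and chrII:798830-798855 (PHO89, minus).
PHO84: ttaatagttcCACGTGgacgtgttat
PHO5: ttggcactcaCACGTGggactagcac
SPL2: tatttttgctCACGTGaccgacaagg
PHO89: gacaatgcagCACGTGggagacaaat
PHO84 and SPL2 held further matches. Pho4 binding and nucleosome positions were not measured.

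Marker and mating genes set WT replicate 3 apart from WT replicates 1 and 2, and it is part of every fitted difference given above. HIS3 and TRP1, of histidine and tryptophan synthesis, had 22.7 and 95.0 CPM in WT replicate 3 and 0 counts in the other 5 libraries. LEU2, URA3 and LYS2 had 0 counts in WT replicate 3 and were read in all of the others, LYS2 at 129, 0.915 and 99.4 CPM in H3i, against 154 and 0.828 CPM in WT replicates 1 and 2. ADE2 and MET17 were read in every library (log2 0.12 ± 0.43 and -0.15 ± 0.32). The marker genes thus set WT replicate 3 apart from H3i and from the other WT libraries alike.

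Yeast cells of the a and alpha mating types make different pheromones and receptors. The 6 markers of a-type cells summed to 1594, 1250.1 and 1724 CPM in H3i, against 984, 337 and 67.1 CPM in WT. The 4 alpha-type markers summed to 75.6, 15.0 and 82.1 CPM in H3i, against 77.2, 33.2 and 3190.0 CPM in WT. WT replicate 3 was the lowest for the first and the highest for the second, with MF(ALPHA)1, for alpha factor, at 2464 CPM there and at most 3.19 CPM elsewhere. In bulk RNA a smaller share of cells of a type and less RNA per cell cannot be told apart. No marker of these lists, of the 5 markers of haploids or of the 6 of sporulating diploids was at 0 in all 6 libraries.

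Apart from WT replicate 3, a-specific genes were also higher in H3i in replicate 1. STE2, the alpha-factor receptor, stood at 575, 601 and 674 CPM in H3i, against 255, 115 and 16.5 CPM in WT. BAR1, the protease that degrades alpha factor, stood at 264, 352 and 175 CPM in H3i, against 152, 148 and 12.1 CPM in WT. For both genes every H3i library lay above every WT library, as for 1.01% of all genes tested, and WT replicate 3 was the lowest. The log2 differences in replicate 1 were 1.21 for STE2, 0.83 for BAR1, 0.38 for MFA1, 0.60 for MFA2, 0.32 for STE6, 0.79 for AGA2 and 0.34 for ASG7. All 7 were above 0 there, against 3327 of the 6354 genes tested. In replicate 2, 5 of 7 were above 0, against 2811 of 6354. In replicate 3, 7 of 7 were, against 3222 of 6354, but that count rests on WT replicate 3, which stood apart in these genes. None passed a test in the fit (STE2 3.38 ± 1.59, edgeR unadjusted p 0.0673).

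The pairs of replicates 1 and 3 gave different pictures of the genome outside these groups. Across 5606 genes at 10 CPM or more, their log2 differences correlated at r = -0.12 (genes are not independent replicates). At least 2-fold the same way in both were 10 genes higher (0.178%) and 19 lower (0.339%) in H3i. Among the 19 were 8 phosphate genes, HHT1 and HHF2, and LEU1, OAC1 and BAT1. At least 2-fold in opposite ways were 56 genes (0.999%), of which 47 were lower in H3i in replicate 1 and higher in replicate 3.

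**Figure D3:**
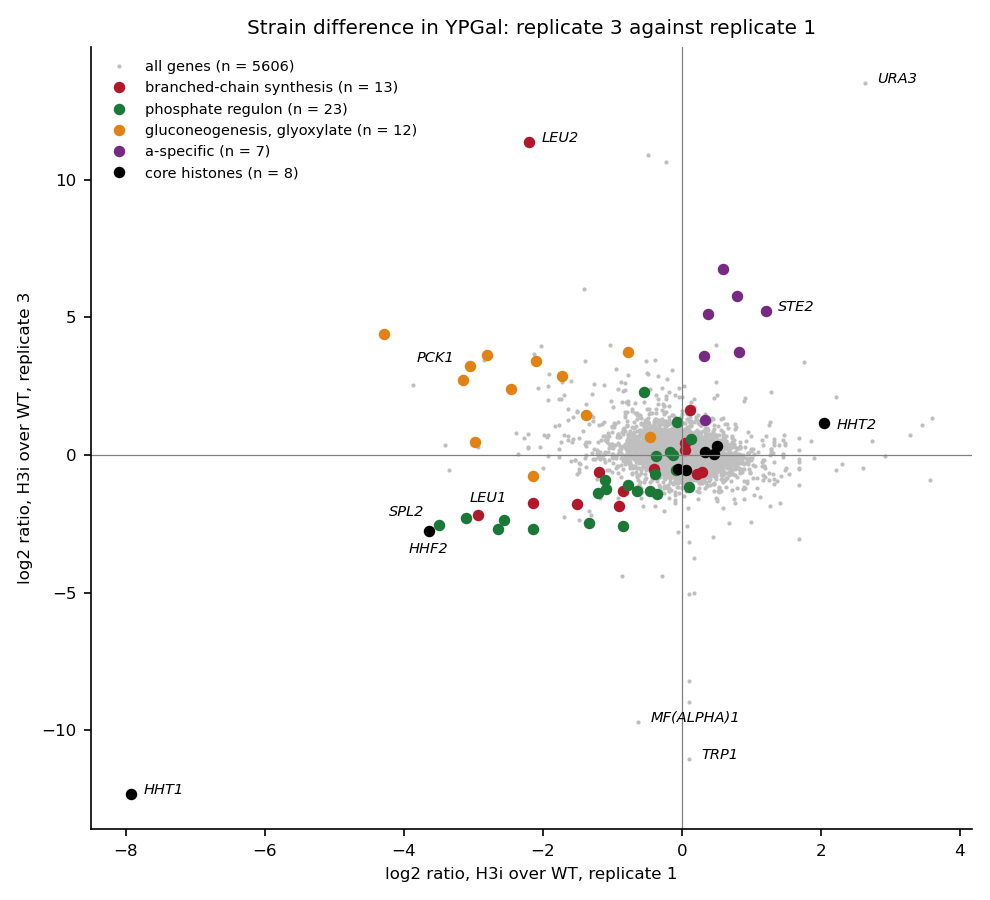
Log2 ratio of H3i over WT in replicate 3 (vertical) against replicate 1 (horizontal) for 5606 genes at 10 CPM or more, with 5 groups in colour. HHT1, HHF2, LEU1 and many phosphate genes lie at the lower left, HHT2 at the right above 0, and genes of gluconeogenesis at the upper left, lower in H3i in replicate 1 and higher in replicate 3.

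Among the gene lists, gluconeogenesis and the glyoxylate cycle had the medians farthest apart between replicates 1 and 3. These enzymes let cells grow on ethanol, acetate or lactate, and glucose represses them. The median over 12 genes was -2.30 in replicate 1, -1.61 in replicate 2 and 2.80 in replicate 3. At least 2-fold lower in H3i were 10 of 12 in replicate 1 (4.66% of all genes), and 9 of 12 were at least 2-fold higher in replicate 3 (6.22% of all genes). Summed over the list the level was 2756, 3240 and 6394 CPM in H3i, against 7510.2, 9244 and 2181 CPM in WT. WT replicate 3 was the lowest and H3i replicate 3 the highest of its strain.

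PCK1, for the first committed enzyme of gluconeogenesis, stood at 61.4, 0.446 and 794 CPM in H3i, against 518, 1085 and 77.6 CPM in WT. IDP2, the cytosolic isocitrate dehydrogenase, stood at 299, 525 and 358 CPM in H3i, against 1011, 1524 and 45.1 CPM in WT. For IDP2, H3i lay between the low WT replicate 3 and the other WT libraries. MDH2, the cytosolic malate dehydrogenase, was the 1 member below WT in every replicate, at 162, 55.3 and 239.7 CPM in H3i, against 730, 316 and 371 CPM in WT (log2 -1.44, edgeR unadjusted p 0.00695). What set WT replicate 3 apart was not tested.

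**Figure D4:**
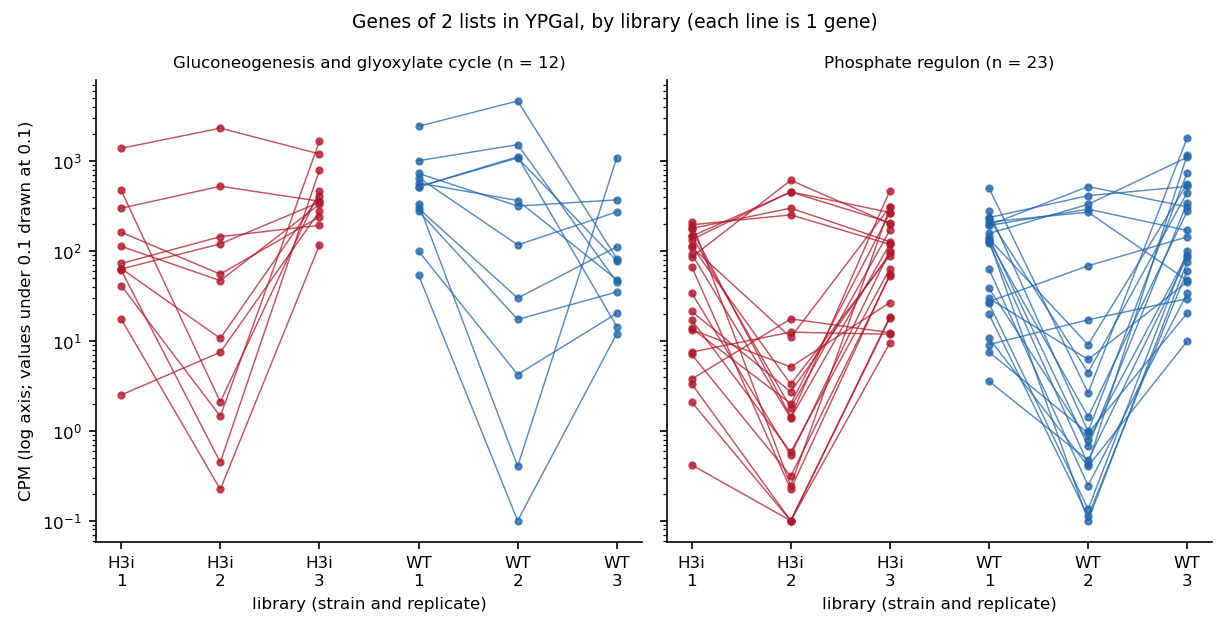
CPM on a log axis of 12 genes of gluconeogenesis and the glyoxylate cycle (left) and of 23 phosphate genes (right) in each YPGal library, H3i left of WT; each line joins the replicates of 1 gene within a strain, and replicates have no order. Most genes are low in WT replicate 3 on the left and several are at their highest there on the right, and replicate 2 of both strains lost several genes in each list.

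Ribosomal protein genes also lay on different sides of 0 in replicates 1 and 3, with the signs opposite to those of gluconeogenesis and smaller medians. Of 137 genes 131 were higher in H3i in replicate 1 (median 0.26), against 3327 of the 6354 genes tested. In replicate 3, 120 were lower (median -0.60), against 3132 of 6354. Their summed level was 121570.1, 130409 and 74702 CPM in H3i, against 103932, 113921 and 101005 CPM in WT, so that H3i replicate 3 was the lowest of the 6. Ribosome biogenesis genes gave medians of 0.38 in replicate 1 and -0.30 in replicate 3, and the 17 genes of the TCA cycle -0.40 and 0.50. None of these 3 lists had a member at an unadjusted p under 0.05.

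Among 23 genes of methionine synthesis and sulfate assimilation, 5 stood at an unadjusted p under 0.05 on the lower side (MET6, MET10, MUP1, MET5 and MET14) and 0 on the higher side, against 1.05% and 0.74% of all genes. The list median was -0.09 in replicate 1 and -0.80 in replicate 3. MET10, of sulfite reductase, had 68.0, 0.335 and 102 CPM in H3i, against 109, 6.78 and 164 CPM in WT, lower in H3i in each replicate. Heat-shock chaperones (median 0.06 in the fit), the proteasome (0.07), DNA replication (-0.08), DNA damage response (-0.05), ergosterol synthesis (0.24) and meiosis and sporulation (0.00) had at most 1 member at an unadjusted p under 0.05 in each.

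**Figure D5:**
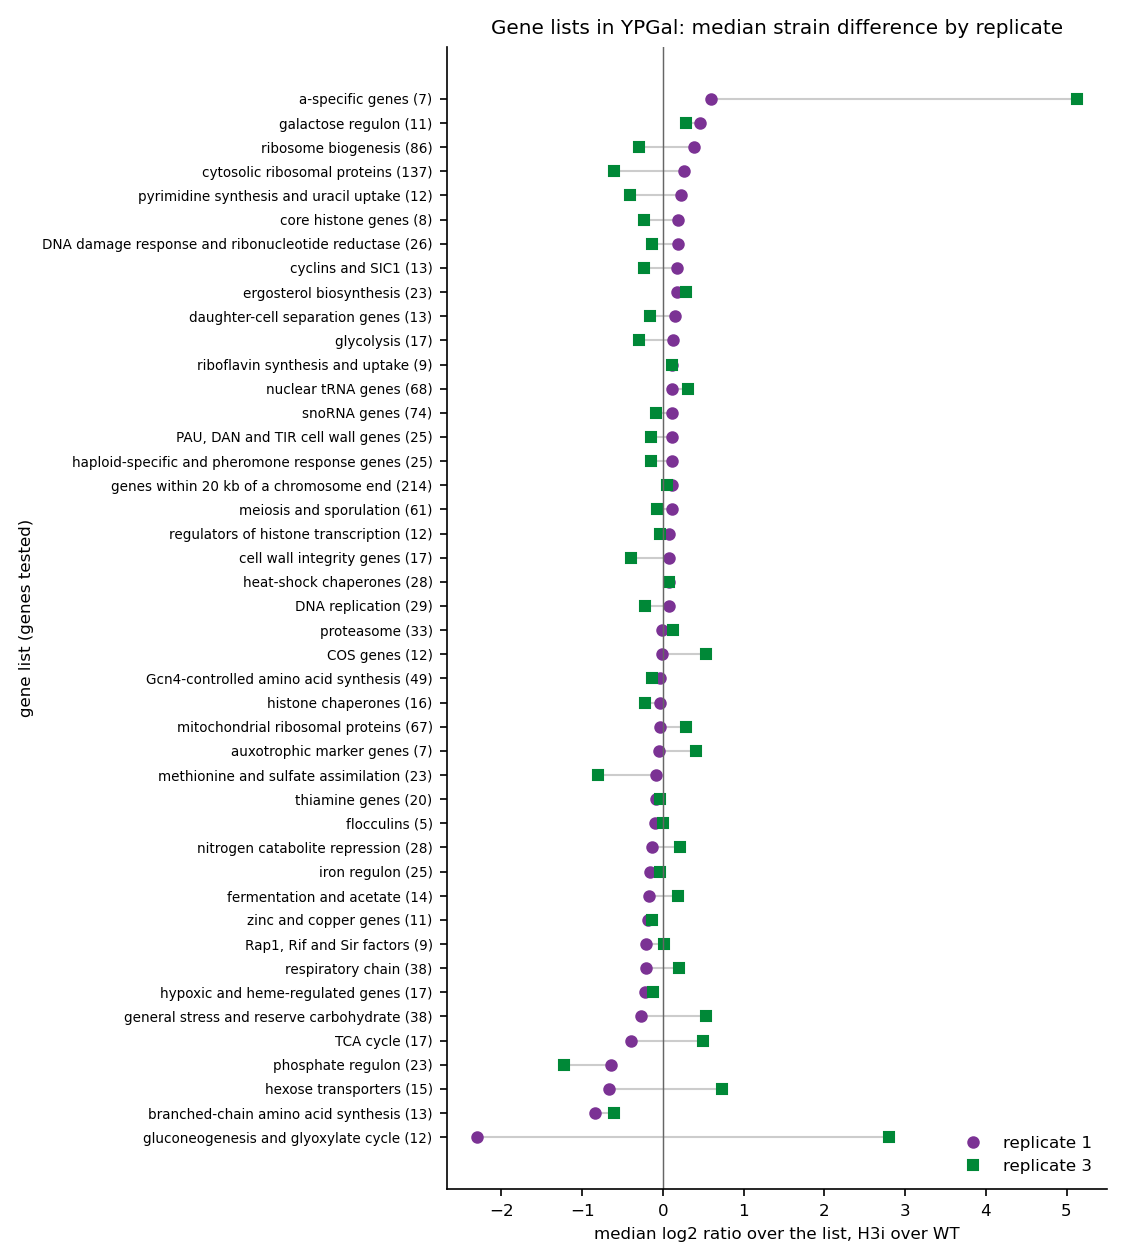
Median log2 ratio of H3i over WT for each gene list with at least 5 tested genes, in replicate 1 (circles) and replicate 3 (squares). Phosphate and branched-chain lists lie below 0 in both, the galactose and a-specific lists lie above 0 in both, and gluconeogenesis changes side (-2.30 in replicate 1, 2.80 in replicate 3).

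Replicate 1, read alone, gives the comparison without WT replicate 3. With 1 library of each strain there is no replicate check and no test. At least 4-fold apart, at 10 CPM or more in 1 of the libraries, were 34 of 5360 genes. Higher in H3i were HHT2, URA3, HXT10, a hexose transporter, and YHL050C and YIR042C near chromosome ends (0.0933%). Lower in H3i were 29 (0.541%), among them HHT1, HHF2, LEU1, LEU2, OAC1, PHO5, PHO84, PHO89 and SPL2, and ACS1, ADH2, FBP1, MLS1, PCK1, SFC1 and MDH2 of growth on ethanol and acetate. HHT2 was 4.15-fold higher in H3i (95% counting interval 3.96 to 4.34), which covers counting error only. HHT1 was 258-fold higher in WT, and HHF2 12.4-fold, LEU1 7.65-fold and OAC1 4.42-fold. In replicate 3 the same limits gave 71 genes higher in H3i (1.28%) and 30 lower (0.54%).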

How the data were processed

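Poly(A) libraries were made with TruSeq Stranded mRNA kits, per the labels' protocols, from RNA extracted with MagMax96 (replicates 1 and 2) or with Trizol and glass beads (replicate 3). The deposited tables hold raw read counts, which the authors made for every gene and library. HISAT2, SAMtools, Picard, FastQC and DESeq2 and the sacCer3 build are named in the submitters' processing notes; versions, the counting tool and its strand setting were not given in the sources used here. Of 7127 features 6047 matched a RefSeq locus tag, the source of symbols and coordinates. A further 5 entries that name no gene held 27.5%, 71.9% and 22.0% of counts in H3i (replicates 1, 2 and 3), against 28.1%, 70.7% and 23.2% in WT, and were left out.

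Counts were fitted in R 4.3.3 with edgeR 4.0.16 (TMM, filterByExpr, quasi-likelihood test) on replicates 1 and 3 of the 4 groups, 8 libraries, with group and kit terms; the kit term equals a replicate block there. Called means a Benjamini-Hochberg adjusted p under 0.05. DESeq2 1.42.0 was an alternative test. Log2 differences within a replicate use TMM-scaled counts plus 0.5; levels use gene totals. The pairing of libraries by replicate number was checked over all 12: deviations from group means in the 18 same-numbered pairs correlated at r = 0.351 to 0.794. Replicate 2, which lost many genes in each strain, enters those means. The check therefore cannot tell whether replicates 1 and 3 alone are paired. Intervals and floors cover counting error only. The procedure was tested on simulated data.

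Named are the core histone genes, the 3 genes on either side of each H3 gene, marker, a-specific and alpha-specific genes, 6 GAL genes and 7 genes of Rap1, Rif and Sir proteins, with the most changed called genes, of which edgeR gave none. Members, 43 gene lists and tests were chosen with earlier results of these data known, and 3 lists (branched-chain, pyrimidine, riboflavin) after the values were seen. Alternatives were other library sets, scalings, filters, blocks and left-out libraries. Upstream windows were read from RefSeq R64, 500 bases before each start codon.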

Additional observations from a re-analysis of the deposited data

Results flagged for a closer look

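For some of the genes named or listed above, the strain difference in YPGal was set apart from that in YPD. The test was the interaction term of the edgeR fit (adjusted p under 0.05 over all genes, 8 libraries). The share of all genes that passed it is not given here, so that the number of genes named is not a result. Values are the log2 difference of H3i over WT in YPGal minus that in YPD, so that the YPD side enters each as much as the YPGal side. Among histone genes it was 7.36 for HHT2, which glucose shuts off in H3i, 1.51 for HHF2 and 1.48 for HTB2. Among the neighbours of the H3 genes it was 1.93 for IPP1, -1.58 for DSF2 and -3.11 for YNL034W. For phosphate genes it was -4.18 for PHO5, -3.03 for PHO11 and -5.94 for GIT1. For amino acid, pyrimidine and marker genes it was 1.29 for ILV2, -1.40 for LEU4, 1.89 for LEU9, 1.98 for URA5, -1.01 for URA8 and -2.96 for MET17. For galactose, sugar transport and silencing genes it was -3.36 for GAL7, -2.73 for GAL10, -4.81 for HXT10, -1.41 for RIF1 and -1.47 for SIR4. LEU1 (-0.30 ± 0.44), OAC1 (-0.29 ± 0.30) and URA1 (1.01 ± 0.57) did not pass this test of the difference. The 2 media did not enter alike for each gene. IPP1 and URA5 had log2 strain differences of -0.06 and -0.04 in YPGal, against -1.98 and -2.02 in YPD. PHO5 had -2.67 in YPGal, against 1.51 in YPD.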

How the results depend on the processing

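The edgeR count of 0 remained with all 12 libraries (17 genes at an unadjusted p under 0.05 with the kit term, 23 with a replicate block), with other scalings (107 and 108) and with a stricter filter (100). With no replicate block it was also 0, with 38 genes at an unadjusted p under 0.05. It was 2 with only the 4 libraries compared (HHT1 and PHO5), 3 with no filter on low counts (HHT1, OAC1 and HHF2), 0 to 1 when 1 library was left out (HHT1 only), and 2 when the WT libraries of replicate 3 in both media were dropped (HHT1 and HHF2). Where an arm was left with 1 library, that library is assumed to vary like the other groups. DESeq2 called 12. Chosen after seeing the data, DESeq2 called 11 without both WT libraries of replicate 3 and 6 on all 12 libraries with a replicate block. In replicate 1 alone, the 34 genes past 4-fold were 168 at 2-fold, 27 at 50 CPM and 36 with library totals; the same limits gave 101 in replicate 3 and 702 in replicate 2.

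A gene's direction was taken as reversed where the sign changed and the reported value exceeded its standard error, or where either value was called. Of 1571 single-gene values under the alternatives, 13 were reversed. They were YBR012W-B without H3i replicate 3 (0.22; -3.28 to 0.22 when 1 library is left out); GAL3 without H3i replicate 1 (-0.08; range -0.08 to 1.31); RIB7 on 12 libraries with the kit term (-0.28) and with a replicate block (-0.44 by edgeR, -0.39 by DESeq2); and TIR1 without WT replicate 3 (1.15; range -4.30 to 1.15). Without both WT libraries of replicate 3, LYS2 was -0.16 by edgeR and -0.18 by DESeq2, MF(ALPHA)1 0.45 and 0.18, TIR1 2.29 and 1.32, and LEU2 -1.97 by DESeq2 (adjusted p 0.0153). The cause was not tested. At 2 libraries a strain and 3 residual degrees of freedom the fit can call only large, even differences, and in replicate 1, the shallowest, 1 CPM is about 2 counts.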
